A study of Homo sapiens with 39 samples.

Results

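NCI-H838 (H838), a human lung adenocarcinoma line, was followed in its carrier medium alone. The 3 vehicle arrays at 24 h were set against the 3 vehicle arrays at 0 h. The arrays were chosen by line, carrier and time in their titles, and they are 6 of the 39 arrays of the series. Every H838 culture was seeded, kept for 24 h, and then given cyclodextrin, the sugar-ring carrier of the compound, at 6.9 µM. The 24 h cultures therefore held cells that had grown for a day longer than the 0 h cultures, and the medium is not stated to have been renewed. Time in culture and time with the carrier cannot be told apart, because every H838 culture was given it. The series as a whole tested 100 nM DKFZ-608, an inhibitor of thioredoxin reductase, in H838 and in the small-cell line NCI-H209 (H209). Also used below are H838 vehicle cultures at 4 h and 8 h and H209 vehicle cultures at 24 h and 0 h (3 arrays each). H838 DKFZ-608 cultures at 24 h (2 arrays), 8 h (3 arrays) and 4 h (3 arrays) are used too. Those at 8 h enter only the spread of the fits and a figure. Replicates are numbered in the labels, but nothing states that they came from separate cultures, so p-values measure the spread between these arrays, which may be technical.

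A cell population in culture passes through a cycle in which genes for DNA replication are made around the G1 to S transition and genes for mitosis in late S phase and G2. Repressor complexes that hold cell cycle genes down in resting and early-cycle cells act at short promoter elements, the CHR and CDE boxes and E2F sites, while NF-Y binds CCAAT boxes that raise mitotic genes. As a culture fills, contacts between cells and the shape of the cytoskeleton alter YAP and TAZ, which act through TEAD factors, and nutrients and growth factors of the medium are used up. RNA was measured from whole cultures, in which a change in the share of cells at a stage and a change in RNA per cell cannot be told apart.

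The genes of mitosis rose together, and smaller sets of S phase genes, histone genes and YAP/TEAD targets fell. Of 12781 genes tested with limma on log2 intensity, 326 (2.55%) passed at a Benjamini-Hochberg adjusted p of 0.05, 185 of them higher at 24 h (1.45%) and 141 lower (1.10%). The changes were moderate: the median was 0.55 among the genes that rose and -0.477 among those that fell, on the log2 scale, and 17 rises and 3 falls were larger than 2-fold. All 3 arrays at 24 h lay above all 3 at 0 h for 1228 genes (9.61%) and below them for 1124 (8.79%). All 185 genes that rose and all 141 that fell were among these. A lack of overlap, where it is given below for a called gene, therefore adds no support to the call. The median difference over all genes was 0.000171.

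The number of calls depended on single arrays. It was 106 without 24 h replicate 2, 121 without 0 h replicate 2, 171 without 0 h replicate 1 and 528 without 0 h replicate 3. With the background level subtracted it was 41, all of them among the 326. Of 67 called genes picked by the naming rule, 32 kept an adjusted p under 0.05 whichever of the 6 arrays was left out, and 17 did so under all 17 alternatives tried. These 17 were DLGAP5, CCNB1, KIF20A, PSRC1, AURKA, CENPE, TOP2A, MARCHF4, H2AC18, H2AC19, H4C8, H1-2, FCMR, ACOX2, CEMIP, CDT1 and F3. The spread of mean level and difference is shown for all genes in the plot of differences against intensity.

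**Figure D1:**
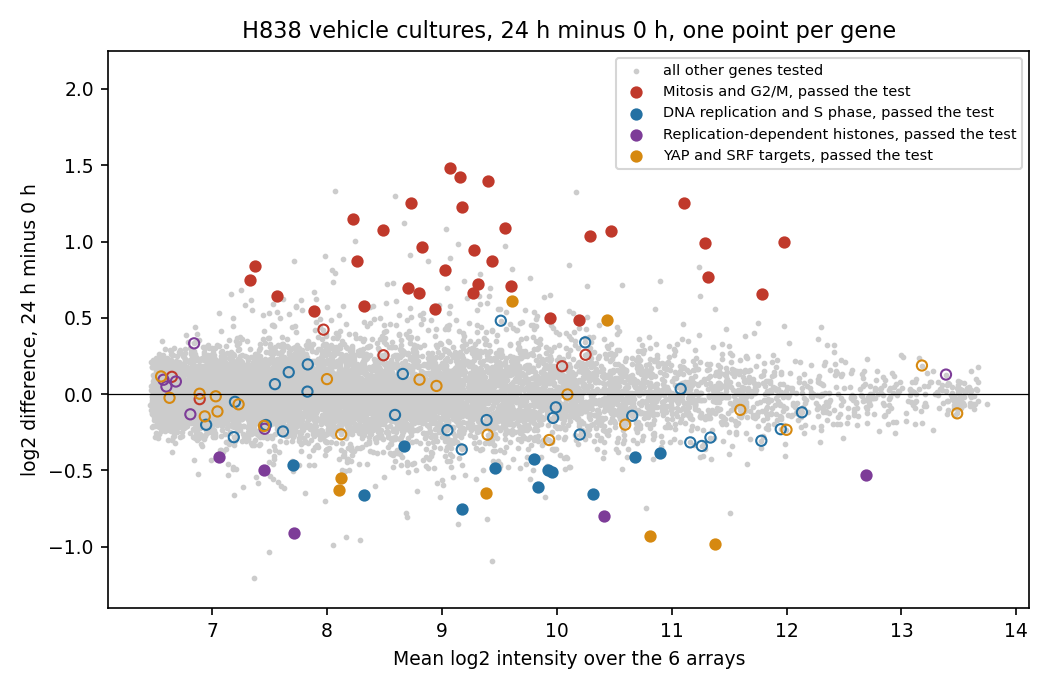
Each point is a gene, with its mean log2 intensity over the 6 arrays on the x axis and its log2 difference, 24 h minus 0 h, on the y axis. Filled coloured points are list members that passed the test and open ones those that did not. The 33 filled mitotic genes lie above 0, and the 12 filled S phase genes and 5 filled histone genes lie below it.

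The promoters of 5 genes that stand for these groups are printed here to show the short elements that are counted after them. Each runs 5′ to 3′ on the gene's strand from 250 bases before the start to 50 bases after it, from RefSeq on GRCh38.p14. In DLGAP5 (chr14:55191536-55191835, minus strand), CENPA (chr2:26785806-26786105, plus strand) and CCNB2 (chr15:59104896-59105195, plus strand), capitals mark the CHR element TTTGAA and the box CCAAT on either strand. In CDT1 (chr16:88803539-88803838, plus strand) they mark the E2F element TTCCCGCC on either strand, and in CCN2 (chr6:131951323-131951622, minus strand) the TEAD element GGAATG on either strand.
DLGAP5: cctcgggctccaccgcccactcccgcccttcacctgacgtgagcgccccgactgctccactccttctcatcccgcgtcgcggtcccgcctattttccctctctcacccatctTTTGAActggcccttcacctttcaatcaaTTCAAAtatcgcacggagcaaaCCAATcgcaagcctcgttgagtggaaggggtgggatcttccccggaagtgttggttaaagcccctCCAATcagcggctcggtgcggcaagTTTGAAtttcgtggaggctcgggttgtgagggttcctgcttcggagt
CENPA: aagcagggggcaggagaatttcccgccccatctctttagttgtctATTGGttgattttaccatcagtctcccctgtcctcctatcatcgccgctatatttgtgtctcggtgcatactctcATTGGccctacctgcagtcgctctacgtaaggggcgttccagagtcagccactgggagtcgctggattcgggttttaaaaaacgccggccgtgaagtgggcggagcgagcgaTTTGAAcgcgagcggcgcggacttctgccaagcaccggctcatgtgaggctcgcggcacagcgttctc
CCNB2: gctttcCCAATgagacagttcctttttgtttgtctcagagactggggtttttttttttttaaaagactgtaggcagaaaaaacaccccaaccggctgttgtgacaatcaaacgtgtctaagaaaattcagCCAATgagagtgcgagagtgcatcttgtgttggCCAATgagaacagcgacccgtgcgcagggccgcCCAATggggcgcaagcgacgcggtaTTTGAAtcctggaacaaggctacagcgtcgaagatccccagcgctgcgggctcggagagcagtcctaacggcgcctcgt
CDT1: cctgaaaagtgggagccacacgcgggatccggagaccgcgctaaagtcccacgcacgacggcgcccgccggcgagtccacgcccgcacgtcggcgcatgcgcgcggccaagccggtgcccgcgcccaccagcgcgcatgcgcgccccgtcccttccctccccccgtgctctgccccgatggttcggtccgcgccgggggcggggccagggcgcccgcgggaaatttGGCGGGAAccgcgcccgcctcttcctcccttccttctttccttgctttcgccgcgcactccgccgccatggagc
CCN2: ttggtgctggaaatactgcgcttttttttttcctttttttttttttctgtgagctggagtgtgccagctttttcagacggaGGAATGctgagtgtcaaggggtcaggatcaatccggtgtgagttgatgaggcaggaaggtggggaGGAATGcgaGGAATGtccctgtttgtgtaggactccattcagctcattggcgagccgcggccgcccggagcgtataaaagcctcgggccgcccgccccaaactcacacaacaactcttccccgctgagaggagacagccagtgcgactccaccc
DLGAP5 holds 3 CHR matches and 2 CCAAT matches, CENPA 1 and 2, and CCNB2 1 and 4. CDT1 holds 1 E2F match, whose first base lies 24 bases before the start, and CCN2 holds 3 TEAD matches.

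Across genes, TTTGAA was in the promoters of 39.3% of the genes that rose (55 of 140 with a promoter in the table) and of 60.6% of the mitotic list (20 of 33). It was in 11.7% of the genes that fell, in 14.5% of the genes tested and in 15.2% of all 35116 promoters. CCAAT was in 72.1% of the genes that rose and 75.8% of the mitotic list, against 41.7% of the genes that fell, 43.4% of the genes tested and 34.6% of all promoters. TTCCCGCC was in 31.4% of the S phase list (11 of 35), 11.7% of the genes that fell, 7.86% of those that rose, 6.08% of the genes tested and 3.16% of all promoters. GGAATG was in 55% of the list of YAP and SRF targets (11 of 20), but in 16.7% of the genes that fell, 14.9% of the genes tested and 14% of all promoters. The motifs were searched on both strands, were counted where they overlap one another too, and were chosen with the values known. These shares are descriptions of letters in the window, with no test.

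Of the 39 genes of mitosis and G2/M, 33 rose and none fell, with a median difference of 0.77 against 0.000171 over all genes. By role, 10 of 12 kinases and cyclins rose, 14 of 15 spindle and kinetochore genes, and 9 of 12 genes of mitotic exit and chromosome structure. The count was 11 with the background subtracted and between 23 and 34 when 1 array was left out. PTTG1 and its near-identical copy PTTG3P both rose (0.99 and 1.32), and probes may not tell them apart.

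Among the kinases and cyclins, CCNB1, the B-type cyclin that drives entry into mitosis, read 9.78, 10.001 and 9.83 log2 in replicates 1, 2 and 3 at 24 h, against 7.99, 8.34 and 9.02 at 0 h. Every 24 h array was above every 0 h array, and 0 h replicate 3 was the highest of its group. The difference was 1.42 ± 0.18 (SE, n = 3 against 3), or 2.68-fold, with a limma adjusted p of 0.000963. CCNB2, the other B-type cyclin on the list, read 10.68, 10.89 and 10.84 at 24 h, against 9.42, 9.71 and 10.16 at 0 h, a difference of 1.04 ± 0.14 (limma adjusted p = 0.0015). AURKA, the kinase of the spindle poles, read 11.85, 11.80 and 11.55 at 24 h, against 10.27, 10.28 and 10.90 at 0 h. Its difference was 1.25 ± 0.14 (limma adjusted p = 0.00054), and a further probe of the gene gave 1.28. PLK1, a kinase of centrosome maturation and mitotic exit, read 7.59, 7.69 and 7.84 at 24 h, against 7.06, 6.76 and 7.06 at 0 h, a smaller rise of 0.75. In all 4 genes the groups did not overlap. CDK1, the partner kinase of the B-type cyclins, was 0.26 higher, which did not pass (limma adjusted p = 0.312). FOXM1, a transcription factor of mitotic genes, was 0.42 higher with an adjusted p of 0.0627.

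Among spindle and kinetochore genes, DLGAP5, which bundles the microtubules near chromosomes and whose promoter is shown above, had the largest rise of all genes. It read 9.78, 9.81 and 9.84 at 24 h, against 7.92, 8.24 and 8.82 at 0 h. The 24 h arrays lay close together, while the 0 h arrays were spread widely with replicate 3 the highest. The difference was 1.48 ± 0.16 (limma adjusted p = 0.000424), or 2.8-fold, and its further probe gave 1.28. CENPA, the histone H3 variant that marks centromeres, read 9.36, 9.45 and 9.27 at 24 h, against 7.68, 8.00 and 8.65 at 0 h (difference 1.25 ± 0.17, limma adjusted p = 0.0015), and its further, dimmer probe gave 0.74. CENPE, a kinetochore motor, read 8.79, 8.88 and 8.72 at 24 h, against 7.43, 7.54 and 7.99 at 0 h. Its difference was 1.15 ± 0.12, with no overlap between groups. KIF20A, a motor of cytokinesis, rose by 1.40, and PSRC1, a microtubule-binding protein of the spindle that is outside the list, by 1.33. CENPF, a kinetochore protein, and NEK2, a centrosome kinase, rose by 1.07 and 1.09 (0.46 on the further, dimmer probe of NEK2), and the F-box cyclin CCNF and the mitotic entry factor CDCA3, both outside the list, by 1.12 and 1.08.

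Among the genes of mitotic exit and chromosome structure, TOP2A, the topoisomerase that untangles sister chromatids, read 11.16, 11.05 and 10.81 at 24 h, against 9.66, 9.92 and 10.23 at 0 h. The groups did not overlap, and the difference was 1.07 ± 0.13 (limma adjusted p = 0.00076). CDKN3, a phosphatase that acts on cyclin-dependent kinases, was 1.23 higher, but its adjusted p was 0.0503 without 24 h replicate 2 and 0.0627 without 0 h replicate 2. CDC20, an activator of the anaphase-promoting complex, rose by 0.65. MKI67, the proliferation marker Ki-67, stayed near background with 6.74, 6.81 and 6.57 at 24 h, against 6.50, 6.66 and 6.61 at 0 h, and did not pass (limma adjusted p = 0.656).

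The mitotic list's level differed among the 0 h arrays. The mean level of the 39 genes, set to 0 for the mean of the 0 h arrays, was 0.809, 0.856 and 0.71 in the 24 h arrays, against -0.246, -0.0379 and 0.284 in 0 h replicates 1, 2 and 3. The 24 h arrays lay closer together than the 0 h arrays, of which replicate 3 was the highest, and no 24 h array fell within the range of the 0 h arrays.

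S phase genes moved the other way, less strongly and less uniformly. Of 39 genes of DNA replication and S phase, 12 fell and none rose, with a median of -0.244. By role, 6 of 7 G1/S cyclins and E2F-group genes fell, 5 of 14 helicase and origin genes, 1 of 14 polymerase and clamp genes, and none of the 4 genes of nucleotide supply. The count fell to 4 without 24 h replicate 2, 5 without 24 h replicate 3, 7 without 0 h replicate 1 and 4 without 0 h replicate 2. It was also 7 when the probes of a gene were averaged and 1 with the background subtracted. Of the 6 called members described next, CDT1, CCNE1 and E2F2 passed whichever array was left out, and UHRF1, MCM10 and GINS2 did not, with highest adjusted p of 0.214, 0.0995 and 0.141.

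CDT1, the licensing factor that loads the replicative helicase in G1, read 8.75, 8.85 and 8.78 at 24 h, against 9.50, 9.55 and 9.59 at 0 h. Both groups were tight and did not overlap, and the difference was -0.75 ± 0.08 (limma adjusted p = 0.000424). CCNE1, the cyclin of the G1 to S transition, read 8.16, 7.90 and 7.91 at 24 h, against 8.85, 8.54 and 8.57 at 0 h (difference -0.66 ± 0.10, limma adjusted p = 0.00307). E2F2, a transcription factor of S phase genes, read 9.64, 9.55 and 9.39 at 24 h, against 10.31, 10.16 and 9.95 at 0 h. Its difference was -0.61 ± 0.10, again with no overlap. UHRF1, which maintains DNA methylation at replication, fell by 0.65 with an adjusted p of 0.0493, and 0 h replicate 3 (10.38) and 24 h replicate 1 (10.37) almost met. MCM10 and GINS2, factors of helicase activation, fell by 0.51 and 0.50. MCM2, a helicase subunit, was 0.36 lower and did not pass (limma adjusted p = 0.327). TK1, a thymidine kinase of nucleotide supply, was 0.48 higher and did not pass (limma adjusted p = 0.148).

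Histone genes that are made in S phase were mixed: 5 of 12 fell, none rose, and the median was -0.179. The count was 2 without 24 h replicate 2 or without 0 h replicate 2, 3 without 24 h replicate 3 or 0 h replicate 1, and 3 when the probes of a gene were averaged. H4C8, an H4 gene, read 7.31, 7.19 and 7.28 at 24 h, against 8.33, 8.21 and 7.96 at 0 h (difference -0.91 ± 0.10, limma adjusted p = 0.000424). H1-2, a linker histone, read 10.03, 10.06 and 9.94 at 24 h, against 10.90, 10.87 and 10.66 at 0 h. Its difference was -0.80 ± 0.09, and neither gene's groups overlapped. Outside the list, the near-identical H2A genes H2AC18 and H2AC19 fell by 1.10 and 0.82, and their probes may share signal. H2BC5 fell by 0.50 by its brighter probe, while a further probe of the gene was 0.18 higher, and H2BC12 and H2BC21 fell by 0.53 and 0.41. These 3 calls were lost without 24 h replicate 2 (limma adjusted p = 0.0947, 0.083 and 0.187). Most messages of these genes end in a stem-loop in place of a poly(A) tail, and how well the arrays read messages without a tail was not tested. SLBP, the protein that binds that stem-loop, fell by 0.41 (limma adjusted p = 0.019), and a link to the histone values was not tested. H2AC4 was the highest list member, 0.33 higher without passing.

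In the list of YAP and SRF targets the few calls split by role, but the medians did not. The median was -0.146 for the YAP/TEAD targets and -0.0635 for the SRF and cytoskeleton genes. Of 15 YAP/TEAD targets 5 fell and none rose, while of 12 SRF and cytoskeleton genes 2 rose and none fell. The list's count of 7 was 3 without 24 h replicate 2 or 0 h replicate 2 and 1 with the background subtracted. CCN1, a secreted matrix protein, read 11.36, 10.78 and 10.52 at 24 h, against 12.08, 11.98 and 11.54 at 0 h. The groups did not overlap, although each was wide, with replicate 1 the highest and replicate 3 the lowest in both. The difference was -0.98 ± 0.18 (limma adjusted p = 0.00695). CCN2, the related connective tissue growth factor whose promoter is shown above, read 10.72, 10.21 and 10.10 at 24 h, against 11.53, 11.37 and 10.93 at 0 h. Its difference was -0.93 ± 0.16 (limma adjusted p = 0.00519), and its further probe gave -0.81. Leaving out 24 h replicate 2 or 0 h replicate 2 took both genes to adjusted p between 0.0559 and 0.0784. The receptor kinase AXL fell by 0.65, the coagulation initiator F3 by 0.63, and the muscle ankyrin protein ANKRD1 by 0.55 with an adjusted p of 0.0485 that was 0.247 without 24 h replicate 2. F3 was the steadiest of them, at 7.82, 7.72 and 7.83 at 24 h, against 8.39, 8.46 and 8.41 at 0 h, although its further, dimmer probe gave -0.25. MYL9, a myosin light chain, rose by 0.61 and TAGLN, an actin-binding protein, by 0.49, whereas SRF itself was 0.30 lower and did not pass.

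**Figure D2:**
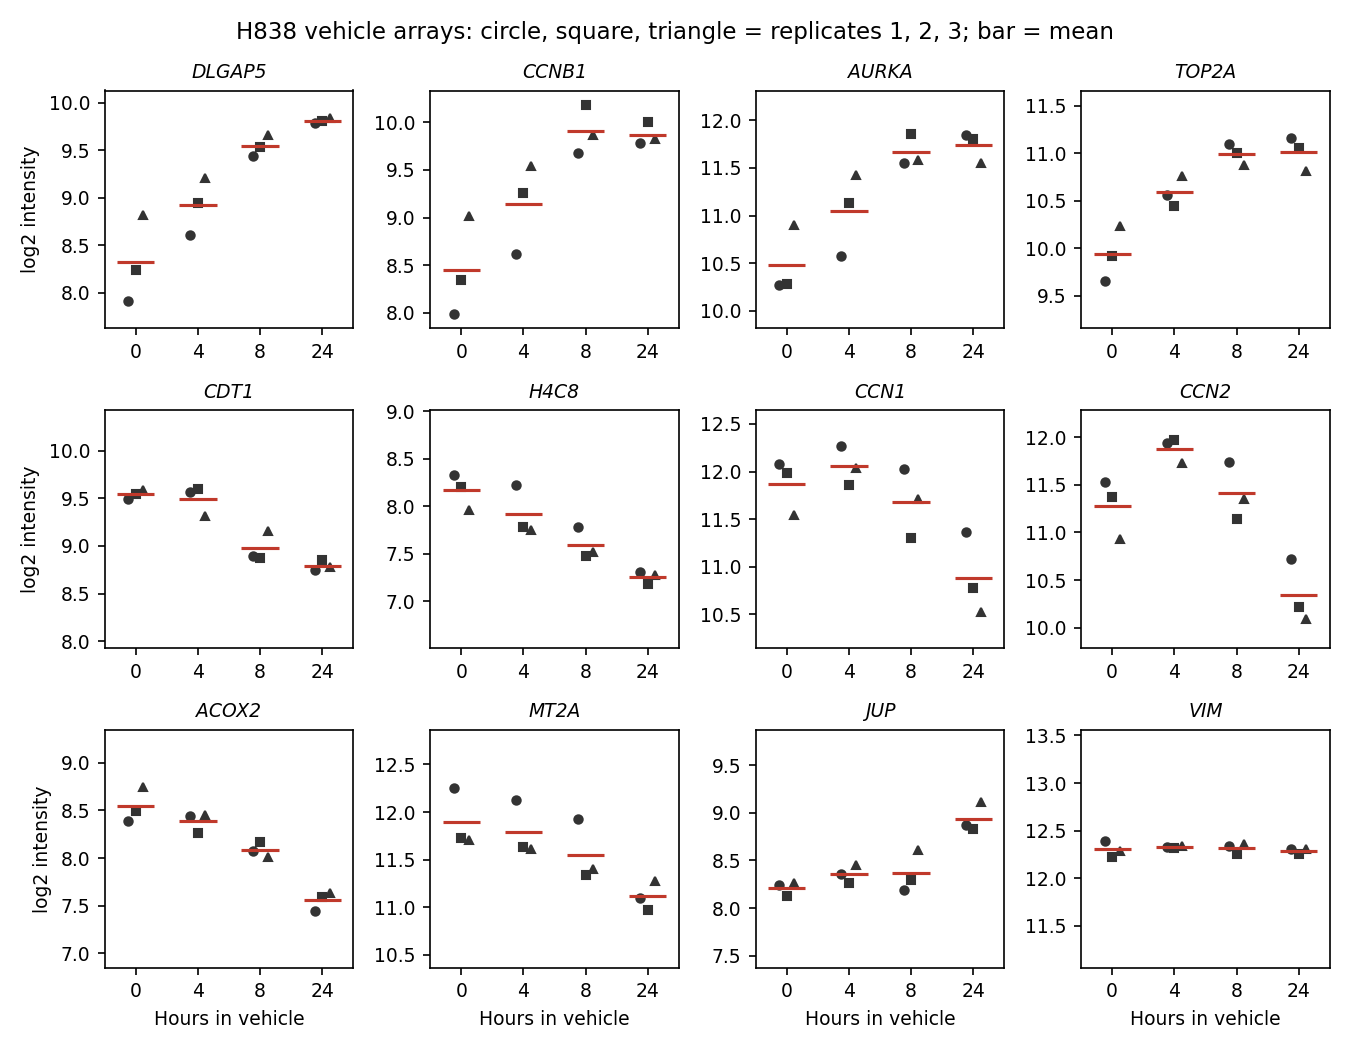
Log2 intensity (y axis) of 12 genes in each H838 vehicle array at 0, 4, 8 and 24 h (x axis), with circles, squares and triangles for replicates 1, 2 and 3 and a bar for the mean. Each panel spans 2.5 log2 units. The mitotic genes DLGAP5, CCNB1, AURKA and TOP2A are near their 24 h level at 8 h, CCN1 and CCN2 are lowest at 24 h, and VIM stays between 12.23 and 12.39.

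Outside these groups, the falls were of diverse genes. MARCHF4, a membrane ubiquitin ligase, read 6.97, 6.71 and 6.60 at 24 h, against 8.42, 7.86 and 7.62 at 0 h, the largest fall of all genes (-1.20 ± 0.16, limma adjusted p = 0.00109). ACOX2, a peroxisomal oxidase of branched-chain fatty and bile acid intermediates, read 7.44, 7.59 and 7.64 at 24 h, against 8.39, 8.50 and 8.75 at 0 h. Its groups were well apart, with a difference of -0.99 ± 0.10. CEMIP, which degrades hyaluronan, fell by 0.95, and FCMR, an IgM receptor, fell by 1.04. EMP1, an epithelial membrane protein, fell by 0.78 (adjusted p of 0.0565 without 24 h replicate 2), and ELAPOR1, an endosome and lysosome protein, by 0.81. CASP4, an inflammatory caspase, fell by 0.85 by its bright probe, while 2 dim probes of the gene moved by -0.05 and -0.12. S100A9, a calcium-binding alarmin, was 0.93 lower, but replicate 3 at 0 h (8.00) lay near the 24 h arrays (7.56, 7.91 and 7.61), and the adjusted p was 0.102 without 0 h replicate 1 and 0.13 without 0 h replicate 2. Among rises outside the lists, TNNC1, the troponin C of slow and cardiac muscle, rose by 0.87. RNY1, a small RNA of Ro particles, read 8.96, 9.36 and 9.39 at 24 h, against 7.47, 7.64 and 8.70 at 0 h, a difference of 1.30 that had an adjusted p of 0.0608 without 24 h replicate 2 and 0.0784 without 0 h replicate 2.

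Of 10 metallothionein and zinc response genes tested, 2 fell, beside 1.10% of all genes tested. MT2A, the main metal-binding thionein, read 11.09, 10.98 and 11.27 at 24 h, against 12.25, 11.73 and 11.70 at 0 h. The difference was -0.78 ± 0.13 (limma adjusted p = 0.00491), and MT1G fell by 0.64. The adjusted p of MT2A was 0.0528, and that of MT1G 0.0565, without 24 h replicate 2. MT1X was 0.19 higher and did not pass, and probes of this family may share signal.

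Among inhibitors and regulators of the cycle, the kinase inhibitors CDKN1B (p27) and CDKN1C (p57) rose by 0.47 and 0.45, and CDKN1A (p21), a p53 target, fell by 0.53. CDKN1B read 9.47, 9.56 and 9.38 at 24 h, against 8.93, 8.94 and 9.12 at 0 h, and CDKN1A read 8.88, 8.82 and 9.10 at 24 h, against 9.78, 9.35 and 9.26 at 0 h. Neither pair of groups overlapped, and each of the 3 calls was lost when some single arrays were left out, with highest adjusted p of 0.0967, 0.103 and 0.21. Of the 23 genes of quiescence and FOXO targets, 2 rose and 3 fell, beside 1.45% and 1.10% of all genes tested. CCND3, a D-type cyclin, and SOD2, the mitochondrial superoxide dismutase, were the other members that fell, by 0.39 and 0.42. Of 17 p53 targets tested, 2 fell, beside 1.10% of all genes tested. They were CDKN1A and the growth arrest protein GADD45A (0.37, with -0.17 on its further probe). Without 24 h replicate 2 the calls of CCND3, SOD2 and GADD45A were lost, with adjusted p of 0.108, 0.17 and 0.105.

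Metabolic and stress lists held few calls, as did the genes tested as a whole, of which 2.55% passed (1.45% higher and 1.10% lower). In sterol synthesis and uptake, 1 of 27 genes rose, the last enzyme of cholesterol synthesis DHCR7 (0.38), while 24 of 27 differences were positive with a median of 0.125, beside 50.1% of all genes tested. In fatty acid synthesis and storage the desaturases SCD (0.46) and FADS1 (0.43) rose, 2 of 20. SCD read 11.18, 11.34 and 11.48 at 24 h, against 10.98, 10.95 and 10.69 at 0 h, and did not overlap. Of 31 hypoxia and glycolysis genes, DDIT4, an mTORC1 inhibitor that hypoxia and stress induce, rose by 0.49 and ADM, the vasodilator peptide adrenomedullin, fell by 0.56, while VEGFA differed by 0.02. Of 34 genes of ATF4 and the amino acid response, 1 rose, the serine synthesis enzyme PHGDH (0.44), and ASNS and TRIB3 were 0.24 and 0.01 higher without passing. The NRF2 list, with 27 genes tested, had no call and a median of -0.0491, and its thioredoxin reductase TXNRD1 and quinone reductase NQO1 differed by 0.04 and -0.28. The calls of DHCR7, SCD, FADS1, DDIT4 and PHGDH were each lost without 24 h replicate 2, with adjusted p of up to 0.214 over the 6 fits that leave out an array, and that of ADM was 0.0565 without 24 h replicate 2.

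Among junction genes, JUP, the junction protein plakoglobin, read 8.88, 8.83 and 9.11 at 24 h, against 8.24, 8.13 and 8.26 at 0 h, a rise of 0.73 ± 0.09 (limma adjusted p = 0.000963) with no overlap. Its 2 dimmer probes gave -0.03 and 0.20. S100A4, a calcium-binding protein of motile cells, rose by 0.56 and the tight junction protein CLDN1 fell by 0.49. The immediate early factor JUND rose by 0.46, the ERK phosphatase DUSP5 fell by 0.43, the antigen peptide transporter TAP1 fell by 0.40, and the clock-linked repressor NFIL3 rose by 0.55. The calls of S100A4, CLDN1, JUND, DUSP5 and TAP1 were lost without 24 h replicate 2 and without 0 h replicate 2, with adjusted p of up to 0.173. Of the 30 lists, 12 had no gene that passed: the unfolded protein, heat shock, NRF2 and TGF-beta responses, ribosomal proteins, ribosome biogenesis, oxidative phosphorylation, the proteasome, autophagy, iron handling, glucose sensing and the lung and neuroendocrine lineage. As only 2.55% of all genes tested passed, a list without a call is no sign that its genes changed less than others. The ribosomal proteins had a median of -0.00289 over 24 genes and oxidative phosphorylation one of 0.087 over 28.

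Of the line's markers, VIM (12.29 at 24 h, 12.30 at 0 h) and KRT8 (9.39 and 9.38) were bright and close at both times, EPCAM was low (7.40 and 7.48), and the epithelial genes KRT19 and CDH1 did not reach the level of the table's median probe. AKR1C2, a reductase that NRF2 induces, averaged 7.32 at 24 h and 6.79 at 0 h, a difference of 0.53 that did not pass (limma adjusted p = 0.2). Its 24 h arrays were spread widely, with an SD of 0.566 against 0.114 at 0 h. Of the other markers of its group, AKR1B10 averaged 7.24 at 24 h and 7.31 at 0 h, NQO1 12.35 and 12.63, and TXNRD1 10.72 and 10.68. AKR1C1 and GPX2 did not pass the filter on dim probes. Of 8 neuroendocrine markers with a probe, 3 passed the filter and the highest mean was 7.02. Of 5 leukocyte markers with a probe, PTPRC and CD3E were at background and LYZ was close to it (6.50 at 24 h, 6.57 at 0 h). Only CD14 (9.11 at 24 h, 9.60 at 0 h) and CD68 (9.65 and 10.07) were well above it. CD68, a lysosomal glycoprotein, fell by 0.41 (adjusted p of 0.13 without 24 h replicate 2). Its further probes gave -0.17 and 0.07, and with the mean of its probes the difference was -0.17 and the call was lost (limma adjusted p = 0.358). The mean level of the leukocyte markers ran from 7.56 to 7.67 at 24 h and from 7.77 to 7.89 at 0 h. Their part in the falls was not tested.

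The 4 h and 8 h vehicle arrays give the course, with the caution that each comparison below shares its 0 h or 24 h arrays with the main one. At 4 h against 0 h no gene passed with limma (0.00%, 707 genes at an unadjusted p under 0.05), and up to 10 did without 0 h replicate 3. At 8 h against 0 h, 143 genes passed (1.12%), 113 higher (0.884%) and 30 lower (0.235%). At 24 h against 8 h, 44 passed (0.344%), 15 higher (0.117%) and 29 lower (0.227%), and at 24 h against 4 h, 166 (1.30%), 61 higher (0.477%) and 105 lower (0.822%). Same-numbered arrays deviated together in the last 3 of these comparisons, and with the replicate number as a block 254, 203 and 653 genes passed. Blocked, 173 genes were higher (1.35%) and 81 lower (0.634%) at 8 h against 0 h. At 24 h against 8 h, 97 were higher (0.759%) and 106 lower (0.829%), and at 24 h against 4 h, 280 were higher (2.19%) and 373 lower (2.92%).

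Leaving out 1 array changed these counts as well. The 8 h count was 63, 62, 64 and 82 without 0 h replicates 1 and 2 and 8 h replicates 2 and 3. The 24 h against 8 h count was 2 and 12 without 8 h replicates 1 and 2, and 4 and 9 without 24 h replicates 2 and 3. The 24 h against 4 h count was 43 and 66 without 4 h replicates 1 and 2, and 45 and 54 without 24 h replicates 2 and 3.

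The mitotic genes lay near their 24 h level by 8 h. Against 0 h, the list's median difference amounted to 0.394 in the 4 h arrays, 0.777 in the 8 h arrays and 0.77 in the 24 h arrays, and 35 of 39 genes were higher at 8 h (37 with the block), whereas none passed between 24 h and 8 h in either fit, where the median was -0.00973. Against 4 h, 2 of the 39 were higher at 24 h, and 20 were with the block. CCNB1 read 8.62, 9.26 and 9.54 at 4 h and 9.68, 10.18 and 9.87 at 8 h, so that its 8 h arrays lay about where the 24 h arrays did. FOXM1, CDK1 and KIF23, which did not pass at 24 h, were higher at 8 h than at 0 h by 0.43, 0.51 and 0.59 (limma adjusted p = 0.0476, 0.0286 and 0.0126).

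The S phase genes came down over the same hours. Against 0 h, their list median came to 0.0232 in the 4 h arrays, -0.144 in the 8 h arrays and -0.244 in the 24 h arrays, and 6 of 39 were lower at 8 h (13 with the block). CDT1 was 0.05 lower at 4 h and 0.57 lower at 8 h, and E2F2 was 0.03 and 0.72 lower. Of the 12 histone genes, 1 was lower at 8 h against 0 h (2 lower and 1 higher with the block) and 1 was lower at 24 h against 8 h (3 with the block). H4C8 fell by 0.57 at 8 h against 0 h (limma adjusted p = 0.0283). H1-2 was 0.09 lower at 8 h against 0 h and fell by 0.71 at 24 h against 8 h (limma adjusted p = 0.0131).

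The YAP/TEAD targets that fell did so after 8 h. Over the list of YAP and SRF targets the median against 0 h amounted to 0.0861 for the 4 h arrays, 0.106 for the 8 h arrays and -0.113 for the 24 h arrays, and 7 of 27 were lower at 24 h than at 8 h (10 with the block), with none higher. CCN2 read 11.94, 11.98 and 11.73 at 4 h, above all 0 h arrays, and 11.74, 11.14 and 11.36 at 8 h. It exceeded 0 h by 0.61 in the 4 h arrays and by 0.14 in the 8 h arrays, neither passing, and it fell by 1.07 at 24 h against 8 h (limma adjusted p = 0.0122). GBP1, an interferon-inducible GTPase, was one of 3 genes with the largest fall after 8 h: it was 0.76 higher at 8 h than at 0 h (limma adjusted p = 0.00494), fell by 1.11 at 24 h against 8 h, and was 0.34 lower at 24 h than at 0 h without passing. MYL9 and TAGLN had risen by 0.52 and 0.59 at 8 h, and their 24 h arrays differed from the 8 h arrays by 0.09 and -0.11 without passing. JUP, DHCR7 and SCD rose after 8 h, by 0.57, 0.40 and 0.47 at 24 h against 8 h (limma adjusted p = 0.0236, 0.028 and 0.028), and were 0.15 higher, 0.02 lower and 0.01 lower at 8 h against 0 h.

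**Figure D3:**
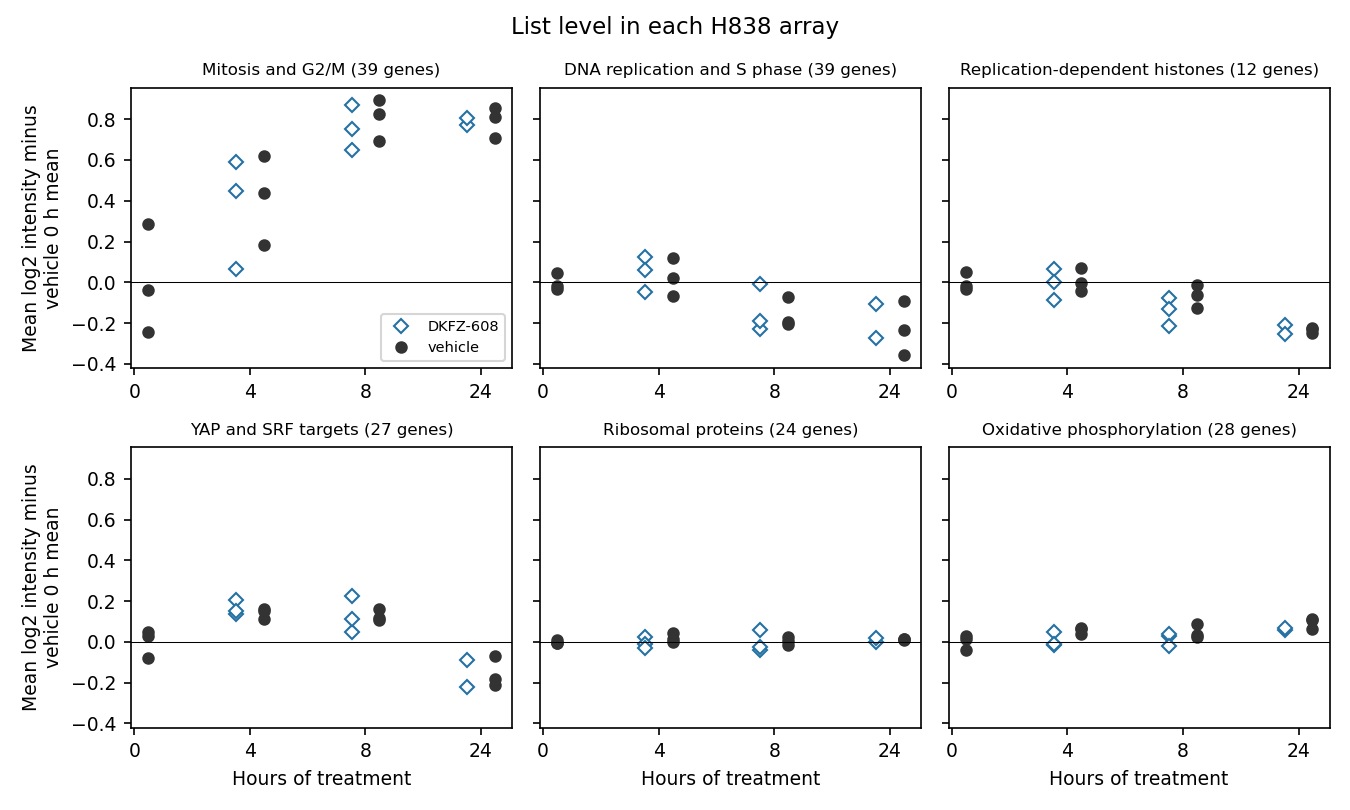
The y axis is the mean log2 intensity of each list's genes in an array minus the mean of the vehicle 0 h arrays, and the x axis the hours of treatment. Open diamonds are DKFZ-608 arrays and filled circles vehicle arrays. The mitotic list rises to between 0.695 and 0.893 in the 8 h vehicle arrays and stays there, and ribosomal proteins stay within 0.06 of 0. The YAP and SRF list is lowest at 24 h on average. Its vehicle 24 h replicate 1 (-0.0703) lies just above vehicle 0 h replicate 3 (-0.0775).

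H838 cultures given DKFZ-608 share no array with the vehicle cultures. Their change from 4 h to 24 h is therefore a separate measurement of a later against an earlier time, with compound present throughout. The titles of the replicate 1 arrays name the line where the others name the compound, so their treatment was taken from the treatment field. Of the 185 genes that rose in vehicle, 182 (98.4%) were higher at 24 h than at 4 h with DKFZ-608, with a median of 0.358. All 141 that fell were lower (100%), with a median of -0.366. Over all genes 46.3% were higher, 53.7% were lower and the median was -0.0115. With 2 arrays against 3 only 8 genes passed with limma (0.0626%), all lower. At an unadjusted p under 0.05, 424 of all 12781 genes were higher (3.32%) and 562 were lower (4.4%). Of the 185 that rose in vehicle 112 were higher at that p (60.5%), and of the 141 that fell 106 were lower (75.2%). The count of 8 was 0 without 24 h replicate 3 or 4 h replicate 1, 2 without 24 h replicate 1 and 1 without 4 h replicate 3. It was 43 with the spread of all 20 H838 arrays, 9 higher and 34 lower, and 158 with the replicate block, 71 higher and 87 lower.

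The 8 genes were CCN2, GBP1, GLIPR1, SRF, TGFB1I1, ALPK2, ETV5 and CNN2. CCN2 read 10.71 and 10.28 with DKFZ-608 at 24 h, against 12.07, 11.83 and 11.89 with it at 4 h (difference -1.44 ± 0.16, limma adjusted p = 0.00997). GBP1 read 8.28 and 7.83 at 24 h, against 9.17, 9.33 and 9.11 at 4 h. Of the 8, CCN2, GLIPR1 and ALPK2 also fell in vehicle at 24 h against 0 h, which is a different span. From 4 h to 24 h in vehicle, CCN2 and GBP1 were among the 3 largest falls that passed. The vehicle means at 4 h and 24 h were 9.27 and 8.13 for GBP1. They were 9.36 and 8.83 for ETV5, and 10.959 and 10.495 for CNN2. These 8 falls are therefore not shown to be particular to the compound. Among the mitotic genes, CCNB1 read 9.84 and 10.06 at 24 h, against 8.51, 9.42 and 9.11 at 4 h, a difference of 0.94 that did not pass (limma adjusted p = 0.29). The mitotic list had a median of 0.453, with 35 of 39 positive, and the S phase list one of -0.228, with 35 of 39 negative. MYL9 and TAGLN, which rose early in vehicle, differed by -0.01 and 0.02 with DKFZ-608 between these times.

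**Figure D4:**
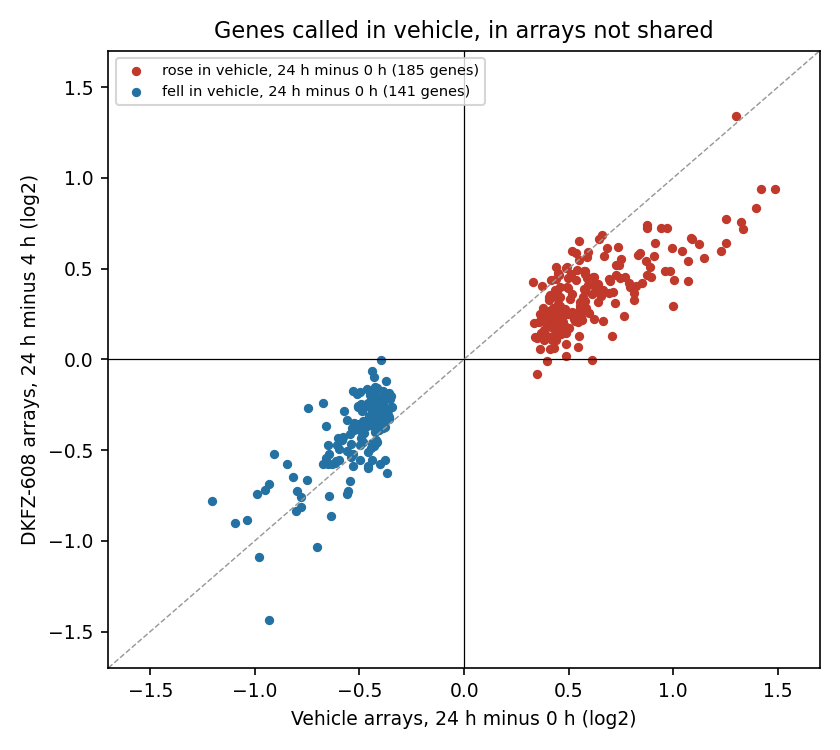
Each point is 1 of the 326 called genes, with its log2 difference in vehicle arrays, 24 h minus 0 h, on the x axis and its log2 difference in DKFZ-608 arrays, 24 h minus 4 h, on the y axis. The dashed line marks equal differences. Of the red genes 182 of 185 lie above 0, and all 141 blue genes lie below it.

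In H209, a small-cell line that grows in suspension, the called genes as a group showed little change in their medians over the same 24 h. Part of them were near background in that line, so little change could be read for them there. CCN1, CCN2, AXL and EMP1, for example, read under 7 in every H209 array. The genes that rose in H838 had a median of 0.0237 in H209 at 24 h against 0 h, and those that fell one of -0.0122. H209 vehicle 24 h replicate 3 is in doubt, because its title gives 24 h and its time field 8 h. Its values also stood apart: the metallothionein MT2A read 12.95 in it, against 10.14 and 10.15 in the other 24 h arrays, and the transcription factor MYC 9.04, against 6.61 and 6.92. The metallothioneins MT1G and MT1X read 13.62 and 13.24 in it, against at most 10.62 and 10.32 in the other 24 h arrays, and TXNRD1 11.34, against 10.40 and 10.57. The median of the metallothionein list in H209 was 0.993 with that array and -0.0492 without it. Without it the medians of the genes that rose and fell in H838 were 0.0788 and -0.0291, and the mitotic list had one of 0.223. A test of the difference between lines, H838 minus H209, passed for 15 genes (0.117%), 8 positive (0.0626%) and 7 negative (0.0548%), and for 37 (0.289%) without that array. The count was between 2 and 84 over all fits that leave out 1 array. It was 2 without H209 0 h replicates 2 or 3, H838 0 h replicate 2 or H838 24 h replicates 2 or 3, 3 without H209 0 h or 24 h replicate 1, 4 without H838 0 h replicate 1 and 84 without H838 0 h replicate 3.

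Of those 15 genes, 13 had passed in H838 itself. The mitotic genes DLGAP5, CENPE and PSRC1 differed between lines by 1.40, 1.05 and 1.26, with changes of 0.08, 0.09 and 0.07 in H209. DLGAP5 in H209 read 10.03, 10.16 and 9.73 at 24 h, against 9.87, 9.86 and 9.95 at 0 h, which is as high at both times as in H838 at 24 h. CCNB1 differed between lines with an adjusted p of 0.0859 and AURKA with one of 0.0859, so the difference was not shown for them. H2AC18, H4C8, FCMR, ACOX2, CASP4, F3 and PNP, which fell in H838, had negative differences between lines. In H209 they changed by between -0.12 (ACOX2) and 0.22 (PNP), and none passed there. ACOX2, F3, FCMR and H4C8 read under 7 in all 6 H209 arrays, as did MYL9, CCN5 and SNORA79, so they were near background in that line and little change could be read there. ACOX2, for example, ran from 6.36 to 6.40 in H209 at 24 h and from 6.39 to 6.56 at 0 h, where 6.55 is the level of the filter on dim probes. The largest differences came from H209: the smooth muscle actins ACTG2 and ACTA2 changed by -2.10 and -2.17 there, against 0.10 and -0.02 in H838, where both were near background.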

How the data were processed

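RNA from H838 and H209 cultures was extracted with a column kit and amplified to labelled cRNA, per the labels' protocols, and read on Illumina bead arrays. The authors deposited linear intensity per probe, and how they normalized it is not given in the sources used here. Quartiles of the 6 arrays agreed within 0.0197 log2, values ran from 60.0 to 21062, and arrays correlated at 0.9855 to 0.9955. Low values had not been brought to 0, so differences of dim probes are understated.

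Values below percentile 1 (intensity 75.8) were set to it and log2 was taken. Of 48107 probes, 20 with empty cells were left out, and probes above the table's median (intensity 93.6) in at least 3 of the 6 arrays were kept. Of all probes 30103 had 1 gene name, 8 several and 17976 none. The brightest named probe represented a gene, giving 12781 genes. Genes are named by platform annotation, with symbols updated through RefSeq.

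Each gene was tested with limma 3.58.1 in R 4.3.3 (lmFit and eBayes, two-sided, Benjamini-Hochberg over all genes, adjusted p of 0.05). The main comparison used the spread of its own 6 arrays, with 4 residual and 10.4 prior degrees of freedom. The other times were compared as group means in all 12 H838 vehicle arrays, DKFZ-608 in its 8 H838 arrays, and the lines in the 12 vehicle arrays at 24 h and 0 h. Precision is limited by having 3 arrays per group. Genes were named by a rule: the 15 largest rises and falls that passed, with a mean log2 of at least 7 in the higher group and no overlap between groups, then up to 6 called members per list, and a set of fixed genes. Other genes named here were chosen after their values were seen. Members, lists and comparisons were chosen with earlier results of these data known.

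Whether replicate numbers pair the arrays was checked by correlating deviations from the group means. At 24 h and 0 h same-numbered arrays gave 0.2, 0.067 and 0.18, and at 4 h and 0 h 0.49, 0.095 and 0.34, so these were not treated as paired. At 8 h and 0 h they gave 0.3, 0.19 and 0.26, and at 24 h and 8 h 0.53, 0.23 and 0.37. At 24 h and 4 h they gave 0.44, 0.19 and 0.2. With DKFZ-608 at 24 h and 4 h, replicates 1 and 3 gave 0.12 and 0.12. All of these were above 0.1, a bound that is arbitrary, so blocked counts are given there.

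CCNE2 did not pass the filter on dim probes, and CA9 was not analysed here. Alternatives covered the normalization, the filter, the probe rule, background subtraction, the samples that set the spread, the replicate block and each array left out.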

Additional observations from a re-analysis of the deposited data

Results flagged for a closer look

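The change from 0 h to 24 h in vehicle differed between H838 and H209 by a limma test of the difference itself for 15 genes, at an adjusted p of 0.05. Differences are H838 minus H209 on the log2 scale. Among genes of mitosis, DLGAP5 differed by 1.40, PSRC1 by 1.26 and CENPE by 1.05. Among histones, H2AC18 differed by -1.06 and H4C8 by -0.91. Among genes of the cytoskeleton, ACTG2 differed by 2.20, ACTA2 by 2.14 and MYL9 by 0.68. The coagulation initiator F3 differed by -0.67 and CCN5, a matricellular protein, by 0.61. FCMR differed by -0.99, CASP4 by -0.94, ACOX2 by -0.87, the nucleoside enzyme PNP by -0.80 and the small nucleolar RNA SNORA79 by 0.84. In all but ACTG2 and ACTA2 the gene had passed in H838 itself. Of the 15, ACOX2, F3, FCMR, H4C8, MYL9, CCN5 and SNORA79 read under 7 in every H209 array, close to the filter on dim probes at 6.55, and ACTG2 and ACTA2 did so in every H838 array, so that little change could be read for them in that line. Line and culture form (adherent or in suspension) cannot be told apart here. H209 vehicle 24 h replicate 3 touches all 15: its labels give different times, and it read 12.95 for MT2A and 9.04 for MYC, against 10.14 and 10.15, and 6.61 and 6.92, in the other 24 h arrays of H209. Without it ACTG2 and ACTA2 differed by 2.45 and 2.42 and DLGAP5 by 1.28.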

How the results depend on the processing

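For the 24 h against 0 h count of 326, other settings gave between 279 and 441 genes, except background subtraction, which gave 41 (233 with a stricter filter, an alternative chosen after seeing the data). Leaving out 1 array gave 106 to 528. The mitotic list's count of 33 was 11 with the background subtracted and 23 to 34 with an array left out. The S phase count of 12 was 7 with the mean of a gene's probes, 1 with the background subtracted, 6 with that and the stricter filter, and 4 to 13 with an array left out. The histone count of 5 was 3 with the mean of probes, 2 with the background subtracted, and 2 to 6 with an array left out. The YAP and SRF count of 7 was 1 with the background subtracted and 3 to 8 with an array left out.

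With an array left out, the count was 0 to 10 at 4 h against 0 h, 62 to 180 at 8 h against 0 h, 2 to 45 at 24 h against 8 h, 43 to 159 at 24 h against 4 h, 0 to 6 with DKFZ-608, and 2 to 84 for the difference between lines. With the replicate block these counts were 0, 254, 203, 653, 158 and 124, and 431 at 24 h against 0 h, where 2 of 3 arrays correlated best with their own number. The spread of all 20 H838 arrays gave 43 calls with DKFZ-608. Of 67 called genes named here, none changed sign, 50 fell short of the threshold in at least 1 of 17 settings, and the causes were not tested. MCM2 and INSIG1, not called, passed without 24 h replicate 1. Detection calls were not used, so low genes such as MKI67 carry little information.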
